A study of Mus musculus with 8 samples.

Results

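Immediate early genes are genes whose transcripts appear within minutes of a stimulus, without new protein synthesis, and decay again soon after. The set described here held 10 of them: Fos, Fosb, Jun, Junb, Egr1, Egr2, Atf3, Ier2, Nr4a1 and Dusp1. They were taken by symbol from the deposited count table, and each matched 1 of its 54532 gene rows. All 10 had enough counts to enter the test, among 13646 genes tested. The RNA came from mouse peritoneal cavity cells labelled as macrophages. The mice had received thioglycollate broth, an irritant that recruits leukocytes to the cavity, and the broth was common to every group. The genotype was either WT or a knockout (KO) of Men1, the gene of menin, a scaffold of histone H3K4 methyltransferase complexes. There were 3 M_WT, 3 M_KO, 1 F_WT and 1 F_KO libraries, each with its own animal number in the title. The letters M and F are not spelled out in the labels. The labels give no strain, age, Cre driver, time after the broth or time from death to lysis. Nothing else in the labels says that the animals were independent, so p-values measure only the spread between these libraries. No library came from cells left unhandled, so activation during lavage and isolation was not tested.

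In the resting macrophage most of these genes are held ready at their promoters, and kinases of the MAPK pathways act on bound factors such as SRF with its Elk partners and CREB to start transcription. Fos and Jun family proteins pair as the AP-1 transcription factor, Atf3 can temper inflammatory transcription, Egr1 and Egr2 are zinc finger transcription factors, and Nr4a1 is an orphan nuclear receptor. Dusp1 encodes a phosphatase that switches MAP kinases off again. The same genes are known to be switched on by stress, mechanical disturbance and warming of cells, which is why they are watched in tissue that has been dissociated or washed out.

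Promoters are shown for 5 members. Nr4a1 and Atf3 had a negative correlation over the 8 libraries (r = -0.70), which did not pass after adjustment. Fos and Dusp1 were highest in an M_KO library, and the window used for Egr2 has none of the letters marked. Each sequence is the 250 bases before the RefSeq start of the gene on build GRCm38.p6, written 5′ to 3′ on the coding strand. Capitals mark TGACG, the core of the cAMP response element that CREB and ATF proteins bind, on either strand (CGTCA where it lies on the other strand). In Dusp1 the capitals also cover the full palindrome TGACGTCA.
Nr4a1: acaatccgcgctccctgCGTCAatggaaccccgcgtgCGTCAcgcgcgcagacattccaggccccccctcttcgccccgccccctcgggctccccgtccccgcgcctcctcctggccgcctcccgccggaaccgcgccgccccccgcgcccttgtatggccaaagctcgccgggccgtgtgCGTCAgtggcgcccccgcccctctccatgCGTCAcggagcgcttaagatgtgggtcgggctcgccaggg
Dusp1: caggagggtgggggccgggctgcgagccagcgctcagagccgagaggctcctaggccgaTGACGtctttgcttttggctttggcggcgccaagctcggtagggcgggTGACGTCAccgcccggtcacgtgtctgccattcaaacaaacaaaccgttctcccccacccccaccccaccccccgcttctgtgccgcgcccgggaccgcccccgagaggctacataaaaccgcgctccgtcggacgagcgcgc
Fos: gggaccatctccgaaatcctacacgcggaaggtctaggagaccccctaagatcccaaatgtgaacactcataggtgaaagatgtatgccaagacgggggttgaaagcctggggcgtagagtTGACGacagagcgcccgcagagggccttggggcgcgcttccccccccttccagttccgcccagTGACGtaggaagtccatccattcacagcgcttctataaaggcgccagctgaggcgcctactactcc
Atf3: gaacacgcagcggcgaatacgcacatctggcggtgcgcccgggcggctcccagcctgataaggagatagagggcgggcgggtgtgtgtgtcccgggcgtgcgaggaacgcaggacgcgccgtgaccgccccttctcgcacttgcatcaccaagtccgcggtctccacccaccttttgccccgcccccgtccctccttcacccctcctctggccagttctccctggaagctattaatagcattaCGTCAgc
Egr2: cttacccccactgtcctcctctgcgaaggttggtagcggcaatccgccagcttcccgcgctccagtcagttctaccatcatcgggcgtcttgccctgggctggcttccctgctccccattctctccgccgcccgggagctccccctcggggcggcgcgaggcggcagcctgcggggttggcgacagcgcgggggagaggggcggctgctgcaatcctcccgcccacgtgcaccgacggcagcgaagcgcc

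The windows lie at chr15:101266596-101266845 on the plus strand (Nr4a1), chr17:26508473-26508722 on the minus strand (Dusp1), chr12:85473640-85473889 on the plus strand (Fos), chr1:191183334-191183583 on the minus strand (Atf3) and chr10:67535249-67535498 on the plus strand (Egr2). The Nr4a1 and Atf3 windows fall inside the gene spans of the deposited table, since the RefSeq start used is not the outermost one. A window was used for 8 of the 10 members, Egr1 and Ier2 being left out. TGACG occurred in 6 of these 8 windows, against 17.8% of the 32851 windows of the same length in the RefSeq table. Nr4a1 held 4 copies, the one nearest to the start ending 36 bases before it. Dusp1 held 3 copies, of which a pair overlaps as the full element, and Fos held 2. Fosb, Junb and Atf3 held 1 each, and Jun and Egr2 had none. For Egr2 5 windows are listed, and only that of the most upstream start was used. The full element TGACGTCA stood in Dusp1 alone among the 8, and in 1.55% of all windows. The EGR site GCGNGGGCG, which Egr1 and Egr2 can bind, was found in Fosb and Nr4a1 and in 4.70% of all windows. The NF-kB motif was found in Fos and Fosb and in 3.90% of all windows. The AP-1 site TGANTCA (6.75% of all windows), the CArG box of SRF (1.47%) and the Nr4a1 response element AAAGGTCA (1.34%) had no match in the 8 windows. Bases farther upstream, other starts and the promoters of Egr1 and Ier2 are not covered. A lack of matches here thus does not show that these genes lack such sites. The letters TATAAA were found in Fos, ending 28 bases before the start, and in 7.59% of all windows. Both strands were searched for every motif except TATAAA, which was searched on the coding strand only. A match describes the letters and not a bound site.

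Levels can be compared between genes only per length, so the deposited FPKM, fragments adjusted for library size and gene length, are used for that. Junb, an AP-1 subunit, had by far the most RNA per length, with 261 to 362 FPKM over the 8 libraries. That placed Junb between the 99.2 and 99.5 percentile of genes with a value above 0 in the same library. On average it made up 55.3% of the summed FPKM of the 10 genes. Atf3 followed with 33.0 to 108 FPKM, and Ier2, a small nuclear protein of the growth factor response, with 46.2 to 73.3 FPKM. Egr2 (20.4 to 47.9 FPKM), Dusp1 (25.7 to 53.5 FPKM), Nr4a1 (20.4 to 53.0 FPKM) and Jun (16.0 to 30.8 FPKM) came next. The ranges of these 4 overlapped, and so did those of Atf3 and Ier2 and of either with Egr2, Dusp1 and Nr4a1, so this order is not resolved beyond the spread. All of these 7 genes lay at or above the 86.2 percentile in every library. Fos stood lower, at 3.69 to 10.9 FPKM, beside Egr1 at 3.51 to 8.07 FPKM, and the ranges of both overlapped. Fosb was barely present, with 0.103 to 0.446 FPKM, between the 20.3 and 36.5 percentile. Transcripts of the set were thus present in every library of both genotypes, with the Junb level 27.4 to 93.6 times that of Fos in FPKM.

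In the comparison of M_KO with M_WT, 0 of the 10 genes were called by edgeR's quasi-likelihood test at an adjusted p under 0.05, where 0.0220% of the 13646 tested genes were. DESeq2 also called 0 of the 10, against 1.19% of the genes it tested. At an unadjusted p under 0.05, edgeR gave 0 of the 10, against 9.56% of all tested genes. The 3 M_KO libraries lay apart from the 3 M_WT libraries for 1 of the 10 genes (Junb), against 16.0% of all tested genes. The median log2 fold change of the 10 genes was -0.09, with 7 of 10 lower in M_KO, and that of all tested genes was 0.01, with 48.5% lower. The authors' deposited table, which covers 23513 rows, likewise holds 130 called genes and 0 of these 10. With 3 libraries a group the intervals were wide, so these results bound the differences and do not show that the levels were alike. In bulk RNA, fewer cells of a type and less RNA per cell cannot be told apart.

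**Figure D1:**
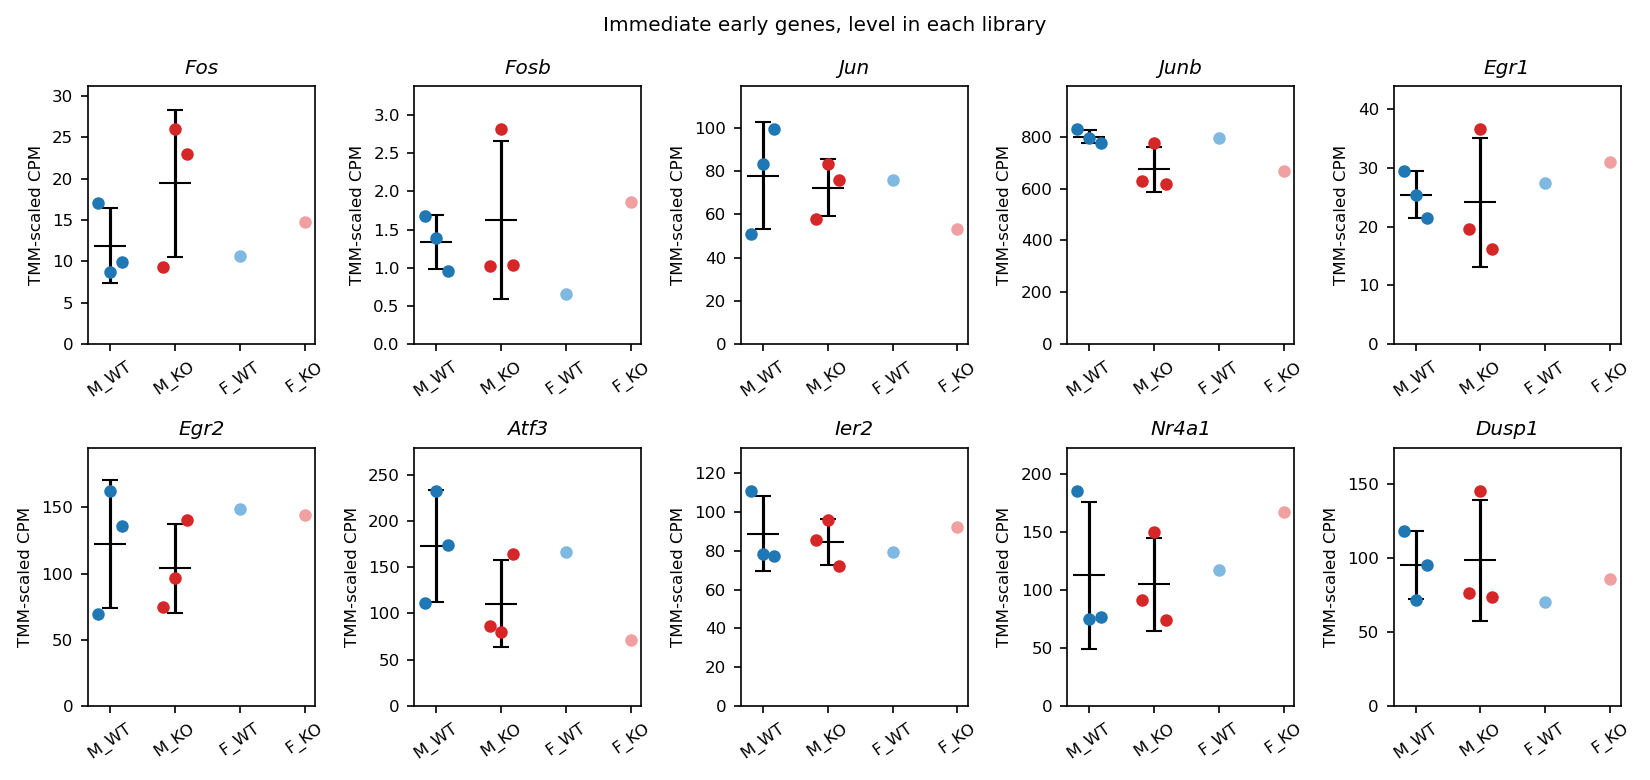
Level of each immediate early gene in each library, in TMM-scaled CPM, on a linear axis from 0 with its own range per gene. Points are libraries, wide bars are the means of the 3 M_WT and the 3 M_KO libraries, and error bars are 1 SD. Junb shows the narrowest spread within M_WT (777 to 830), and M_KO_5645 is the highest point for Fos, Fosb, Egr1 and Dusp1.

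Values over libraries are given as CPM, counts scaled to library size by the TMM method, which allow comparison of 1 gene between libraries but not between genes. Among the Fos family, Fos had 17.1, 8.68 and 9.92 CPM in M_WT_5643, M_WT_6258 and M_WT_6255. It had 9.34, 25.97 and 23.0 CPM in M_KO_5944, M_KO_5645 and M_KO_5642. M_KO_5645 and M_KO_5642 were higher than every M_WT library, while M_KO_5944 lay among them, so the groups overlapped. The means were 11.9 ± 4.53 CPM in M_WT and 19.4 ± 8.87 CPM in M_KO (SD, n = 3 each). By edgeR, M_KO over M_WT was 0.70 on the log2 scale (SE 0.43), with a 95% interval from -0.32 to 1.72 (adjusted p 0.626). This interval reaches from 0.803 to 3.30 times the M_WT level. F_WT had 10.7 CPM and F_KO 14.8 CPM, both within the range of the M libraries.

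Fosb, a close relative of Fos, had 1.67, 1.38 and 0.962 CPM in M_WT and 1.02, 2.82 and 1.04 CPM in M_KO, in the same order. A single library, M_KO_5645, was high, and the remaining M_KO libraries lay within the M_WT range. edgeR put the log2 difference at 0.27 (SE 0.51; adjusted p 0.889). It was -0.39 without M_KO_5645, so the sign rests on that library. F_WT had 0.652 CPM, the lowest of all libraries, and F_KO had 1.86 CPM.

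Jun, the partner of Fos in the classical AP-1 dimer, had 50.8, 83.3 and 99.3 CPM in M_WT and 57.8, 83.1 and 76.0 CPM in M_KO. All 3 M_KO libraries lay inside the M_WT range, and M_WT_5643 was the lowest of the 8 libraries. edgeR gave a log2 difference of -0.11 (SE 0.26; interval -0.74 to 0.51; adjusted p 0.910). The F libraries gave 75.7 CPM (F_WT) and 53.0 CPM (F_KO).

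Junb had 829.6, 794.7 and 777.3 CPM in M_WT and 629.4, 775.5 and 615.8 CPM in M_KO. The groups did not overlap, but by a margin of under 2 CPM: M_KO_5645 sat just below the lowest M_WT library, and the other M_KO libraries were clearly lower. The means were 800.5 ± 26.6 CPM and 673.6 ± 88.5 CPM (SD, n = 3 each). On the log2 scale edgeR found M_KO lower by an estimate of -0.25 (SE 0.15; interval -0.61 to 0.10; adjusted p 0.609). An M_KO level below 0.657 or above 1.07 times the M_WT level lies outside that interval, which is the narrowest of the 10. The F pair gave 795.3 CPM (F_WT) and 666.6 CPM (F_KO), each near the mean of the M group of its genotype.

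Of the Egr factors, Egr1 had 29.4, 25.3 and 21.5 CPM in M_WT and 19.6, 36.6 and 16.1 CPM in M_KO. The M_KO libraries held both the highest and the lowest value, on either side of all 3 M_WT libraries. edgeR's estimate was accordingly close to 0, at -0.08 (log2, SE 0.32; adjusted p 0.951). F_WT had 27.4 CPM and F_KO 31.0 CPM. Egr2, which is linked to the differentiation of monocytes and macrophages, had 69.0, 162.7 and 136.0 CPM in M_WT and 74.4, 96.8 and 140.2 CPM in M_KO. M_WT_5643 was the lowest and M_WT_6258 the highest of the 8 libraries, so the M_KO values fell wholly within the M_WT range. The estimate from edgeR was -0.25 (log2, SE 0.35; adjusted p 0.849). The F pair gave 148.9 CPM (F_WT) and 143.9 CPM (F_KO).

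Atf3, a stress-induced repressor of the ATF family, had 111.3, 232.8 and 173.4 CPM in M_WT. It had 86.7, 79.7 and 164.3 CPM in M_KO. M_KO_5944 and M_KO_5645 were below every M_WT library, but M_KO_5642 was above M_WT_5643. The means were 172.5 ± 60.8 CPM and 110.2 ± 47.0 CPM (SD, n = 3 each). This is a log2 difference of -0.65 by edgeR (SE 0.36; interval -1.51 to 0.20; adjusted p 0.596). It is the most negative estimate of the 10, and its interval reaches from 0.350 to 1.15 times the M_WT level. F_KO had 71.5 CPM, the lowest of the 8 libraries, and F_WT had 166.6 CPM.

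Ier2 had 111.2, 78.3 and 77.2 CPM in M_WT and 85.7, 96.1 and 72.0 CPM in M_KO. The groups overlapped throughout, with M_WT_5643 highest. Between genotypes edgeR gave -0.08 (log2, SE 0.19; interval -0.53 to 0.37; adjusted p 0.914). The F pair gave 79.3 CPM (F_WT) and 92.1 CPM (F_KO). Nr4a1 had 185.3, 74.6 and 76.7 CPM in M_WT and 90.6, 149.6 and 73.4 CPM in M_KO. One library in each group was high (M_WT_5643 and M_KO_5645), which left the means close, at 112.2 ± 63.3 CPM and 104.5 ± 39.9 CPM (SD, n = 3 each). For this gene edgeR gave -0.11 (log2, SE 0.43; adjusted p 0.953). F_WT had 117.0 CPM and F_KO 166.6 CPM.

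Dusp1, the feedback phosphatase, had 118.3, 71.8 and 95.5 CPM in M_WT and 76.1, 145.8 and 73.7 CPM in M_KO. M_KO_5645 was the highest of the 8 libraries and the other M_KO libraries were at the low end of M_WT. The log2 estimate of edgeR was 0.05 (SE 0.32; interval -0.71 to 0.80; adjusted p 0.974). The F pair gave 70.5 CPM (F_WT) and 86.0 CPM (F_KO). An exact two-sided permutation test of 3 against 3 libraries cannot go below 0.1, and it gave 0.1 for Junb, 0.2 for Atf3, 0.3 for Fos and 0.7 to 1 for the other genes. After Benjamini-Hochberg adjustment over the 10 exact tests the values were 0.889 or higher.

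**Figure D2:**
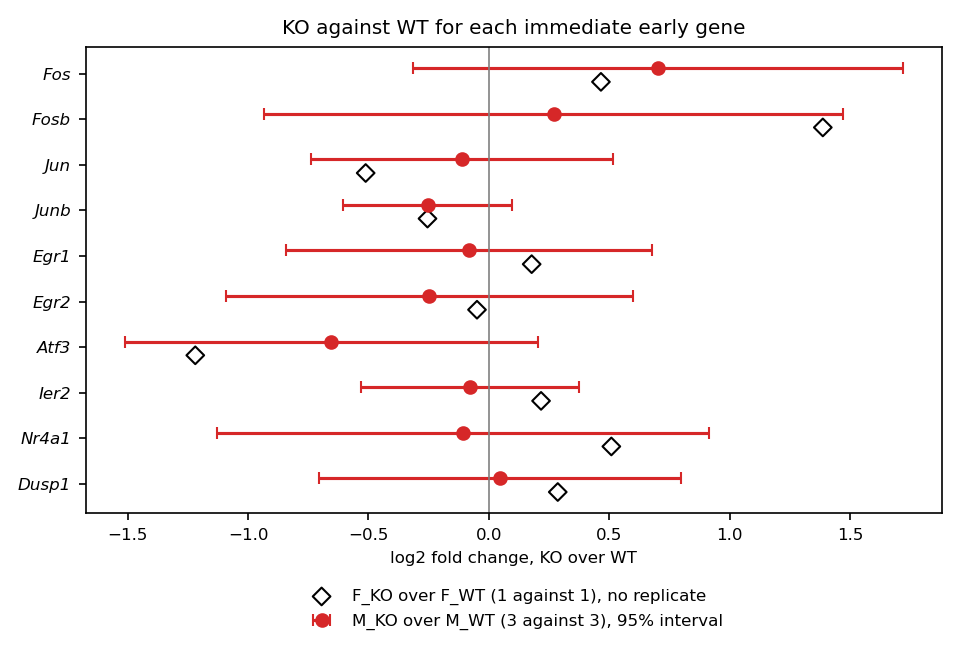
Log2 fold change of KO over WT for each immediate early gene. Filled points with bars are edgeR estimates from 3 M_KO against 3 M_WT libraries with 95% intervals, open diamonds are the differences between the single F_KO and F_WT libraries, and the vertical line marks 0. All 10 intervals include 0, with estimates from -0.65 (Atf3) to 0.70 (Fos).

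When the F libraries were added, with M or F as a term in the model, 0 of the 10 genes were called by edgeR, where 0.00727% of 13751 genes were. An unadjusted p under 0.05 was reached by 1 of the 10 (Atf3), against 9.48% of the genes tested. Atf3 had a log2 fold change of -0.79 (SE 0.30), a p of 0.0322 and an edgeR adjusted p of 0.516. DESeq2 called 0 of the 10 in this fit as well, with an adjusted p of 0.274 for Atf3. The interaction of genotype and letter was called by edgeR for 0 of the 10 genes, against 0.0218% of the genes tested. The lowest p of the interaction belonged to Fosb, at 0.267 unadjusted and 0.965 adjusted, and DESeq2 called 0 of the 10 as well.

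The F pair has 1 library per genotype and no test. Of the 10 genes, 2 differed by more than 1.5-fold between F_KO and F_WT, against 25.6% of 13751 genes. Fosb was 2.86 times as high in F_KO, with an exact interval from 1.54 to 5.58, and Atf3 stood at 0.429 of F_WT, with an interval from 0.404 to 0.456. These intervals cover counting error only. Jun was lower in F_KO (ratio 0.701), Nr4a1 (1.42) and Fos (1.38) were higher, and the remaining genes had ratios from 0.838 to 1.22.

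Libraries of 1 genotype differed among themselves for most of these genes. The SD of log2 CPM within the M groups had a median of 0.51 over the 10 genes, against 0.29 over all tested genes. Fos (0.67), Nr4a1 (0.65) and Fosb (0.62) varied most within groups. Junb (0.13) and Ier2 (0.26) varied least, and both lay below the median of all genes. The highest value over the 8 libraries was 4.32 times the lowest for Fosb, 3.26 times for Atf3 and 2.99 times for Fos, but 1.35 times for Junb.

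**Figure D3:**
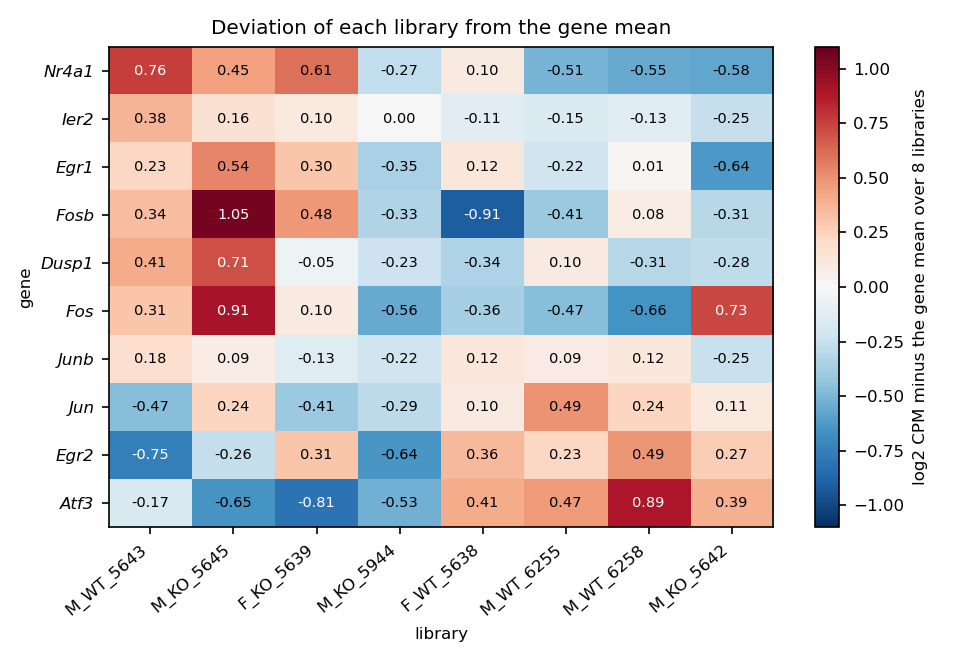
Deviation of each library from the mean of the gene over the 8 libraries, in log2 CPM, as a colour and a printed value. Rows are the 10 genes and columns the 8 libraries, both ordered after the values were seen. Nr4a1 stands at 0.76 in M_WT_5643 and -0.58 in M_KO_5642, where Atf3 stands at -0.17 and 0.39. Atf3 ranges from -0.81 in F_KO_5639 to 0.89 in M_WT_6258, and both genes are below their mean in M_KO_5944 (-0.27 for Nr4a1 and -0.53 for Atf3).

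The genes did not move as 1 block over the libraries. M_KO_5645 was the highest library for 4 genes (Fos, Fosb, Egr1 and Dusp1), M_WT_5643 for 3 (Junb, Ier2 and Nr4a1), M_WT_6258 for 2 (Egr2 and Atf3) and M_WT_6255 for Jun. M_KO_5642 was the lowest for 4 genes (Junb, Egr1, Ier2 and Nr4a1). M_KO_5944 was above the median of the 8 libraries for 1 gene and below it for 9. The mean deviation of the 10 genes was lowest in that library, at -0.34, and highest in M_KO_5645, at 0.32. By this mean both extremes were M_KO libraries, and the 3 M_WT libraries lay between them at -0.04 to 0.12. By summed CPM the lowest was again M_KO_5944 (1131 CPM). The highest sums were in M_WT_6258 (1534 CPM) and M_WT_5643 (1524 CPM), above M_KO_5645 (1492 CPM).

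Over the 8 libraries, 45 pairs of genes were correlated on log2 CPM. Ier2 and Nr4a1 went together most closely, with Pearson's r of 0.89 and Spearman's rho of 0.93. Exact permutation gave p = 0.00236 for r and p = 0.00223 for rho. Benjamini-Hochberg adjusted values over the 45 pairs were 0.106 and 0.1004. Without the 2 libraries farthest from the median of Ier2, r was 0.81, and within genotype over the M libraries it was 0.98. Egr1 and Nr4a1 had r = 0.80 and rho = 0.81, with exact permutation p = 0.0215 and p = 0.0218 and adjusted values of 0.303 and 0.398, and r = 0.78 without the 2 farthest libraries. Egr2 and Ier2 ran in opposite directions, with r = -0.72 and rho = -0.52, exact permutation p = 0.0406 and p = 0.197, and adjusted values of 0.303 and 0.442. Without 2 libraries r was -0.63. Atf3 and Nr4a1 had r = -0.70 and rho = -0.64, with exact permutation p = 0.0596 and p = 0.0962 and adjusted values of 0.303 and 0.398, and r = -0.52 without 2 libraries. Fosb and Dusp1 had r = 0.77 and rho = 0.62, with exact permutation p = 0.0239 and p = 0.115 and adjusted values of 0.303 and 0.398. Ier2 and Dusp1 had r = 0.72 and rho = 0.60, with exact permutation p = 0.0388 and p = 0.132 and adjusted values of 0.303 and 0.425. Without the 2 libraries farthest from the median of the first-named gene, r fell to 0.38 and 0.26. Within genotype over the M libraries r was 0.82 and 0.75. In all, 5 pairs had an exact p under 0.05 by Pearson and 4 by Spearman, and 0 passed after adjustment by either. By the sign of r, Fos, Fosb, Egr1, Ier2, Nr4a1 and Dusp1 went with each other (0.23 to 0.89). So did Jun, Egr2 and Atf3 (0.55 to 0.62). Every r between these 2 sets was negative, from -0.72 to -0.03 (Jun with Dusp1). Some were weak, as for Egr1 with Egr2 (r = -0.13, rho = -0.05, and r = 0.21 without 2 libraries). Junb had r of both signs with either set. The sets were read from the values, and no pair passed after adjustment.

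Some genes of other lists were high where Nr4a1 was high, and were picked after the values were seen. The 3 libraries with the most Nr4a1 (M_WT_5643, F_KO_5639 and M_KO_5645) were also the 3 with the most Hdc, the histidine decarboxylase gene, at 744.3, 1122 and 606.1 CPM. The other 5 libraries had 101.0 to 408.6 CPM of Hdc. The same libraries led for Ighm, the heavy chain gene of IgM made by B cells, with 234.9, 338.0 and 328.0 CPM against 61.8 to 194.0 CPM. They also led for Csf3r, the G-CSF receptor gene, though narrowly, with 376.0, 520.9 and 611.1 CPM against 199.0 to 374.3 CPM. The B cell list, which holds Ighm, was highest by sum in these 3 libraries too. It had 442.0, 718.0 and 658.8 CPM there, against 143.8 to 438.3 CPM. By mean deviation of its genes, F_WT_5638 (0.45 on the log2 scale) stood above M_WT_5643 (0.25). The lists that hold Hdc and Csf3r did not follow these genes: the mean deviation of the tested mast cell and basophil genes was highest in M_KO_5944 (1.77 on the log2 scale), and that of the tested neutrophil genes was -0.04 in M_KO_5645 and 0.56 in M_KO_5944, a library with 90.6 CPM of Nr4a1. Nor did all of the set follow, as Atf3 and Egr2 were highest in M_WT_6258. The part of these genes, and of the cells they may come from, in the levels of the immediate early genes was not tested.

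Marker lists for cell types that a lavage can hold gave the following summed levels. The B cell list (10 of 10 genes tested) summed to 143.8 to 442.0 CPM in M_WT, 217.7 to 658.8 CPM in M_KO, 438.3 CPM in F_WT and 718.0 in F_KO. The mast cell and basophil list (6 of 9 tested) ran from 305.1 to 761.3, from 102.6 to 613.7, 411.2 and 1128 CPM in the same order, nearly all of it Hdc. Its defining proteases were low: Cpa3 was at 0 to 2.89 CPM and Mcpt4 at 0 to 3.39 CPM, both at 0 in M_KO_5642. The neutrophil list (3 of 10 tested) ran from 204.6 to 385.5, from 253.4 to 616.7, 250.7 and 539.3 CPM, nearly all of it Csf3r, and Ly6g had no count outside M_KO_5642 (0.0399 CPM). T and NK cell genes summed to 0.658 to 3.65 CPM and red cell genes to at most 0.798 CPM over the 8 libraries. The dendritic list summed to 27.1 to 51.8 CPM and the mesothelial and fibroblast list to 3.78 to 12.7 CPM. The eosinophil list, from 440.8 to 3111 CPM, was nearly all Alox15, which resident macrophages also express, and Epx was at 0 in all 6 M libraries.

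The macrophage list itself (11 of 11 tested) summed to 21449 to 32744 CPM in M_WT, 18666 to 21242 CPM in M_KO, 25159 CPM in F_WT and 25293 in F_KO. Although these sums lay apart between the M groups, edgeR put 6 of its genes lower and 5 higher in M_KO, with a median of -0.0054 (log2). Mean deviations of the list overlapped, spanning -0.05 to 0.14 (M_WT) against -0.16 to 0.10 (M_KO) on the log2 scale. Adgre1, which encodes F4/80, had 1209 to 2112 CPM over the 8 libraries. Genes of resident large peritoneal macrophages (9 of 9 tested) summed to 9322 to 12762 CPM in M_WT and 4084 to 15866 CPM in M_KO, with 6432 in F_WT and 16001 in F_KO. M_KO_5642 was the lowest library for these genes and for Nr4a1, Ier2, Egr1 and Junb alike. Other libraries did not follow. F_WT_5638, the next lowest for the resident genes, had 117.0, 79.3, 27.4 and 795.3 CPM of Nr4a1, Ier2, Egr1 and Junb. M_KO_5944 had 13289 CPM of the resident genes and the lowest mean deviation of the immediate early genes (-0.34). The part of the resident cells in these levels was not tested.

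Men1 itself was lower in the KO libraries, with 25.7, 17.1 and 21.4 CPM in M_WT, 8.15, 6.45 and 8.42 CPM in M_KO, 18.1 in F_WT and 11.7 in F_KO. The groups did not overlap, but the log2 fold change of -1.49 had an edgeR adjusted p of 0.284. Which part of the gene was deleted is not given in the labels. Total counts ran from 18206427 to 22853583 per library, and Spearman correlations between libraries from 0.949 to 0.988. The 10 genes together took 0.110% to 0.157% of the counts of a library.

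A wider list of 52 symbols of other immediate early and rapid-response genes was read from the same fit. Rows of the count table were found for 51, and 48 genes were tested. Of these, 33 were lower and 15 higher in M_KO. Their median was -0.21 (log2), beside 0.01 for all tested genes. None (0) passed edgeR's threshold, and 11 had an unadjusted p under 0.05, of which 9 were lower. Of all tested genes, 9.56% had such a p. The groups did not overlap for 11 of the 48 (22.9%), against 16.0% of all tested genes. The 4 with the highest FPKM were Cebpb, Ier3, Mcl1 and Socs3. Cebpb, a transcription factor of macrophage activation, had a log2 fold change of -0.26 (SE 0.15, edgeR adjusted p 0.607). Ier3, a rapid stress-response gene, had -0.52 (SE 0.21, edgeR adjusted p 0.514), with 393.3 ± 5.92 CPM in M_WT and 275.3 ± 80.6 CPM in M_KO (SD, n = 3 each) and no overlap. Mcl1, a survival gene of the Bcl2 family, had -0.10 (SE 0.14, edgeR adjusted p 0.841), and Socs3, an inhibitor of cytokine signalling, had -0.88 (SE 0.60, edgeR adjusted p 0.658). DESeq2 called 2 genes of the list, against 1.19% of all genes it tested, and these 2 are named because they were called. Rgs2, a regulator of G protein signalling, rose in M_KO by DESeq2 (adjusted p 0.00315), from 31.5, 17.9 and 24.96 CPM in M_WT to 53.8, 173.9 and 69.5 CPM in M_KO. By edgeR the estimate was 1.995 on the log2 scale (SE 0.47, adjusted p 0.434). Phlda1, a growth-factor-induced gene, fell by DESeq2 (adjusted p 0.000219), from 17.6 ± 1.21 CPM to 8.97 ± 0.727 CPM (SD, n = 3 each), with an edgeR log2 fold change of -0.98 (SE 0.15, adjusted p 0.302). In F_KO against F_WT the median of the list was 0.30, with 29 of 48 genes higher.

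Heat shock genes are a second class that answers stress and warming. All 20 were tested, and 19 were lower in M_KO, beside 48.5% of all tested genes, the median being -0.15 (log2). At edgeR's threshold there were 0 calls, and 4 genes had an unadjusted p under 0.05, against 9.56% of all tested genes. The groups did not overlap for 4 (20.0%), against 16.0% of all tested genes. The 4 with the highest FPKM were Ubb, a ubiquitin gene (-0.15, SE 0.13), and the chaperones Hsp90ab1 (-0.12, SE 0.15), Hspa8 (-0.29, SE 0.16) and Hsp90aa1 (-0.57, SE 0.17), with edgeR adjusted p of 0.464 or higher. Hsp90aa1 had 302.6 ± 37.1 CPM in M_WT and 205.2 ± 34.9 CPM in M_KO (SD, n = 3 each). The exception in direction was the inducible Hsp70 gene Hspa1b, named because DESeq2 called it (adjusted p 0.0397). It had 25.4, 11.9 and 14.2 CPM in M_WT and 38.4, 57.2 and 32.6 CPM in M_KO, all M_KO libraries being higher, and an edgeR log2 fold change of 1.31 (SE 0.34, adjusted p 0.434). Its near-identical neighbour Hspa1a, named for that reason, had a log2 fold change of -0.05 (SE 0.22), and reads could be divided between both genes. The highest Hspa1b value among the M libraries was in M_KO_5645, which was also the highest for Fos, Fosb, Egr1 and Dusp1, yet the summed heat shock list was lowest there, at 3244 CPM against 3739 to 4393 CPM elsewhere. In F_KO against F_WT the median of the heat shock list was 0.0045 (log2), with 10 genes lower and 10 higher.

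**Figure D4:**
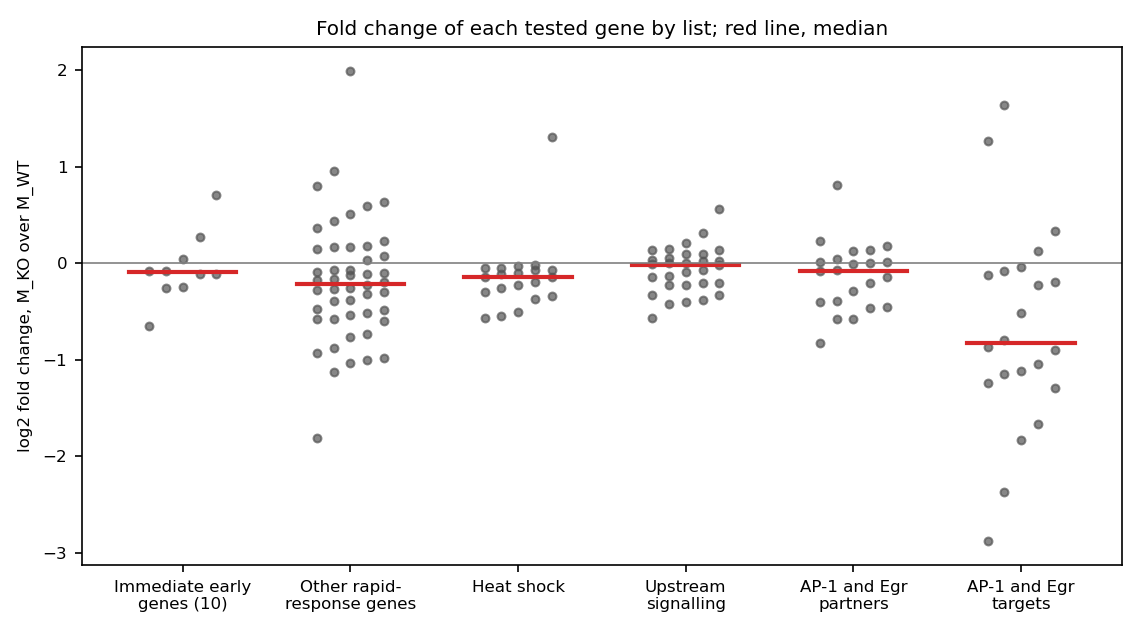
Log2 fold change of M_KO over M_WT for each tested gene, by gene list, from edgeR. Points are genes, spread sideways for visibility, red lines are medians and the grey line marks 0. The 10 immediate early genes have a median of -0.09, and the list of AP-1 and Egr target genes has the lowest median, -0.83. The lists were chosen with earlier results of these data known.

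Genes that act upstream of the set, the MAP kinases and the factors SRF, Elk and CREB, had estimates on both sides of 0, between -0.56 (Map2k4) and 0.56 (Rps6ka1) on the log2 scale. Of 33 symbols listed, 31 had a row in the count table and 30 were tested. In M_KO 17 were lower and 13 higher, the median being -0.01 (log2), and both edgeR and DESeq2 called 0. By unadjusted edgeR p under 0.05 there were 3, against 9.56% of all tested genes. The groups did not overlap for 13.3%, against 16.0% of all tested genes. The 4 with the highest FPKM were kinase genes: Mapkapk2, a target of p38 (-0.23, SE 0.17), Rps6ka3 (-0.42, SE 0.21), Map2k3 (-0.38, SE 0.18) and Rps6ka4 (0.02, SE 0.19), with edgeR adjusted p of 0.554 or higher.

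Partners and relatives of AP-1 and Egr (22 of 23 rows tested) had a median of -0.08, with 14 lower and 8 higher. edgeR called 0, and an unadjusted p under 0.05 was reached by 2, against 9.56% of all tested genes. DESeq2 called 1 (higher in M_KO), against 1.19% of all genes it tested. The groups did not overlap for 13.6%, against 16.0% of all tested genes. Among those with the highest FPKM were Atf4, of the integrated stress response (0.01, SE 0.14), Nfe2l2, which encodes NRF2 (-0.00055, SE 0.14), and Fosl2, a Fos relative (-0.07, SE 0.31). Fosl2 and some others stand on more than 1 list.

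Genes known as targets of AP-1 or Egr factors in some cell types had the lowest median of these lists, -0.83 (log2) beside -0.09 for the 10 immediate early genes. All 22 were tested, and 18 were lower and 4 higher. There were 0 edgeR calls, and 9 genes had an unadjusted p under 0.05, against 9.56% of all tested genes. The groups did not overlap for 10 of 22 (45.5%), against 16.0% of all tested genes. In the F pair the median was -0.38. Among those with the highest FPKM were Thbs1, a matrix glycoprotein (-0.22, SE 0.37), Il1b, an inflammatory cytokine (-1.67, SE 0.64), and Hmox1, heme oxygenase (-0.04, SE 0.55), with edgeR adjusted p of 0.487 or higher. DESeq2 called 5 lower, where it called 1.19% of all genes it tested in either direction. These 5 are named because they were called: Tnf, Timp1, Mmp13, Vegfa and F3. F3, which encodes tissue factor, fell from 27.1 ± 4.53 CPM to 7.62 ± 1.51 CPM (SD, n = 3 each). Its adjusted p by DESeq2 was 5.24e-10, beside an edgeR log2 fold change of -1.83 (SE 0.21, adjusted p 0.146). Tnf, a cytokine gene, fell from 239.3 ± 40.2 CPM to 128.7 ± 17.1 CPM (SD, n = 3 each). Its adjusted p by DESeq2 was 0.00649, beside an edgeR log2 fold change of -0.90 (SE 0.17, adjusted p 0.354). These lists were compared with the 10 genes by counts and medians only, and many of the target genes answer to other factors too. The lists were chosen with earlier results of these data known. Their counts and medians therefore describe the listed genes and test nothing about AP-1 or Egr targets as a class.

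By likeness of pattern, measured as Pearson's r over the 8 libraries between log2 CPM and the mean deviation of the 10 genes, Togaram1 ranked first of 10256 genes with r = 0.93. Prkd3, a protein kinase D gene, followed with 0.91, then Tapt1 (0.89), Abhd3 (0.89), Rpl9-ps6 (0.89), Prepl (0.88), Rassf2 (0.88) and Asb1 (0.88). Rpl9-ps6 is listed as protein-coding in the deposited table but named a pseudogene of Rpl9, so reads may be shared with that gene. Prkd3 ranged from 72.8 CPM in M_KO_5944 to 144.8 CPM in M_KO_5645, the same libraries that bounded the set by mean deviation. These are the highest of many correlations over libraries that share depth and scaling, and they are given as a description.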

How the data were processed

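RNA of 8 mouse peritoneal macrophage libraries was read from the files as deposited. Libraries were made with a NEBNext Ultra kit, per the labels' protocols. Builds GRCm38 and mm10 and the tools DESeq2 1.16.1, featureCounts 1.5.0-p3 and HISAT2 2.0.5 are named in the submitters' processing notes. The sources used here do not give the strand and multi-mapping settings or the annotation release. The authors deposited raw read counts per gene, which were tested. The FPKM values deposited by the authors were used for levels between genes. Their deposited comparison holds a per-library signal adjusted by the authors, which was only described, and the authors' log2 fold changes and p-values, which were read for the 10 genes. Unmatched value columns numbered 0.

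The test was that of edgeR 4.0.16 under R 4.3.3 (quasi-likelihood, TMM, default expression filter on genotype, Benjamini-Hochberg over all tested genes, threshold 0.05). CPM use TMM factors over 8 libraries, and log2 CPM a prior count of 2. Intervals are at 95%. A count of 0 allows up to 3 counts. DESeq2 1.42.0, limma 3.58.1 (voom, or log2 of FPKM + 1 or + 0.1), other scalings and filters and leaving out libraries were alternatives. The edgeR test was tried on simulated counts of M_KO against M_WT, with the same spread given to all genes. It recovered 15% of 2-fold and 87% of 4-fold changes, and 12 of its 114 calls were false. Most 2-fold changes were thus missed there. Named beside the 10 genes are Men1, the 4 genes of each list with the highest mean FPKM, genes called by DESeq2 (some genes that this rule gives are not reported here), and the 8 protein-coding genes most like the set with a mean log2 CPM of at least 1. The 10 genes, the lists and the tests were chosen with earlier results of these data known. Animal numbers differ between groups, so no pairing was used. Promoter windows came from a RefSeq table of GRCm38.p6.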

Additional observations from a re-analysis of the deposited data

How the results depend on the processing

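The count of the 10 genes called in M_KO against M_WT stayed 0 under all 16 alternatives, and the lowest adjusted p of any of them was 0.294 (Fos without M_KO_5944). Over all genes, the count of 3 became 187 with DESeq2, 16 with no filter on low counts and 1 over all 8 libraries, and ran from 0 to 21 when M libraries were left out in turn (0 without M_WT_6255, 21 without M_WT_5643, 5 without M_WT_6258 or M_KO_5944). Fos, Junb and Atf3 kept their sign under all 16 alternatives, at 0.26 to 1.06, -0.37 to -0.19 and -1.06 to -0.38 on the log2 scale. The near-zero estimates changed sign. Dusp1 was -4.8e-05 with voom, -0.0092 on log2(FPKM + 1), -0.010 on log2(FPKM + 0.1) and -0.13 with a term for animal numbers beginning with 56. Over all 8 libraries Ier2 was 0.0049 and Nr4a1 0.056. Leaving out M libraries gave ranges of -0.39 to 0.52 (Fosb), -0.34 to 0.10 (Jun), -0.52 to 0.14 (Egr1), -0.53 to 0.0095 (Egr2), -0.18 to 0.12 (Ier2), -0.46 to 0.47 (Nr4a1) and -0.36 to 0.24 (Dusp1). The median of the 10 genes ran from -0.36 (without M_KO_5645) to 0.083 (without M_WT_5643), and that of the wider list from -0.49 (without M_KO_5645) to -0.16 with libraries left out, and -0.078 over all 8 libraries. The causes were not tested, and other scalings moved the median of all genes to at most 0.03. The interaction could not be fitted without an F library. No paired analysis was possible because the animal numbers in the titles are not shared between groups. Depth limits Fosb most, at 0.652 to 2.82 CPM, and with 3 libraries a group the intervals of Fos, Fosb, Egr2, Nr4a1 and Atf3 leave room for more than 2-fold in at least 1 direction.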
